A study of Mus musculus with 8 samples.

Results

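The mature miRNAs of the rodent miR-297, miR-466, miR-467 and miR-669 families were examined in small RNA libraries of differentiating mouse embryonic stem cells. The members were every entry of the deposited miRNA table whose name begins with mmu-miR-297, mmu-miR-466, mmu-miR-467 or mmu-miR-669 followed by a letter, a hyphen or the end of the name, which gave 76 of 1099 entries: 5 of miR-297, 31 of miR-466, 13 of miR-467 and 27 of miR-669. The rule reads names and no measured values. All libraries came from the KH2-DGCR8 line, that is, KH2 mouse embryonic stem cells carrying an inducible DGCR8, which were grown as embryoid bodies (EBs, floating aggregates in which stem cells differentiate) and taken at day 0, 1, 2 or 4, each with doxycycline (Dox, the inducer) and without it. Both treatments therefore share the genotype and differ only in Dox, and the labels do not state for how long Dox was given. The study asked what an excess of DGCR8 does to miRNA production. There was 1 library for each of the 8 conditions, so a single day has no replicate, and a Dox effect was tested over the 4 days with day as a block. No label ties a library to a culture of its own, and the p-values below therefore reflect only the spread among these 8 libraries. For nearly all members that spread was pooled over miRNAs of similar level, not taken from the miRNA's own values. The standard errors (SE) below have the same limit. The table holds miRNAs alone, and the level of Dgcr8 itself was not measured here.

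A miRNA is cut from a hairpin in a longer transcript by the Microprocessor, in which the RNA-binding protein DGCR8 holds the hairpin and the nuclease DROSHA cuts it. DICER then trims the hairpin to a duplex, and the strand from its 5′ side (5p) or its 3′ side (3p) is loaded into an Argonaute protein, where bases 2 to 8, the seed, find targets. The miR-297, miR-466, miR-467 and miR-669 families are rodent miRNAs that lie in tandem copies within an intron of Sfmbt2, a Polycomb-related gene that is imprinted and expressed in early embryo and trophoblast lineages, with a few relatives elsewhere in the genome.

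RefSeq (GRCm38.p6) gave a mature sequence for 8 of the 76 members. These 8 are shown as examples of the families' sequences, with the seed in capitals and the rest in lower case, 5′ to 3′.
miR-466j: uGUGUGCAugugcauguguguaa
miR-466k: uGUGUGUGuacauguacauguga
miR-467h: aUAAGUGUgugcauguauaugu
miR-669n: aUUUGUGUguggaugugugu
miR-466i-3p: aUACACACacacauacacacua
miR-466q: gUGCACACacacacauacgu
miR-467f: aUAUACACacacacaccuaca
miR-467g: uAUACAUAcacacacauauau

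The sequences were of 2 kinds. In miR-466j, miR-466k, miR-467h and miR-669n between 68.2% and 90.0% of bases were U or G, and all 4 held the run GUGUGU, which occurs in 1.01% of the 1679 mature sequences of that table (searched on the given strand). In miR-466i-3p, miR-466q, miR-467f and miR-467g between 70.0% and 86.4% of bases were A or C, and all 4 held ACACAC, found in 0.655% of them. The median mature sequence had 54.5% U or G. No seed was shared between any pair of the 8, and one of them, that of miR-467h, was also the seed of a miRNA outside the families, miR-668-5p. These descriptions cover 8 members whose hairpins lie outside Sfmbt2 and say nothing of the other 68.

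By the mouse annotation (GRCm38, the same assembly as mm10), 72 of the 82 hairpin genes of these families lie in Sfmbt2 (chr2:10370510-10595253, plus strand). They fill chr2:10466663-10518279, 51.6 kb, inside a single intron of 62472 bases (chr2:10461473-10523944, intron 10 of the transcript ENSMUST00000041105.6), and none overlaps an exon. GENCODE gives 71 of them the plus strand, that of the host gene. There are 29 miR-669, 24 miR-466, 14 miR-467 and 5 miR-297 hairpins. The most repeated are Mir669a with 12 copies, Mir467a with 10 and Mir466b with 8. In the middle of the cluster 12 units recur every 2414 to 2469 bases (median 2452), and neighbouring hairpins start a median of 296 bases apart. Of the members, 61 match hairpins in Sfmbt2 only, 9 match hairpins elsewhere only, 4 (miR-297a-5p, miR-466f, miR-466f-3p and miR-466f-5p) match both, and miR-466a-3p and miR-466a-5p matched no hairpin by symbol.

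**Figure D1:**
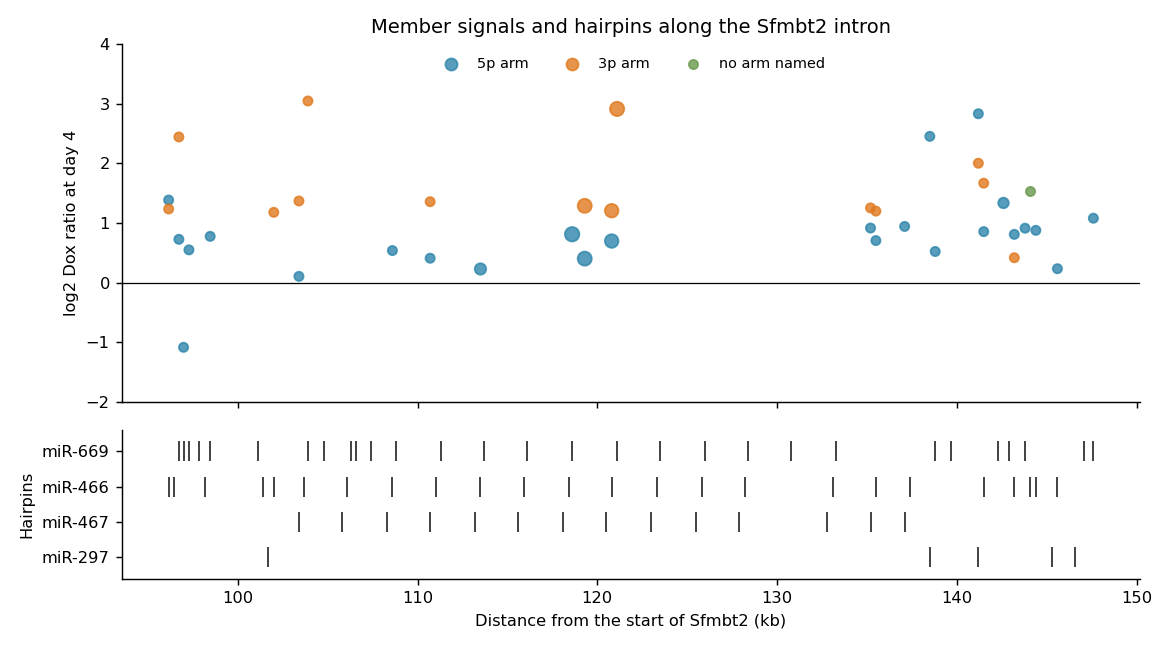
The lower panel marks each hairpin by its distance in kb from the start of Sfmbt2. The upper panel places 40 member signals with a mean of at least 10 RPM over their hairpin, or the median position where there are several (larger points), against the log2 ratio of Dox to no Dox at day 4 from 1 library each: 39 of the 40 lie above 0, from one end of the cluster to the other.

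The deposited values are RPM, reads scaled to a common total for all libraries, rounded to whole numbers, where a level counts reads of a mature miRNA with no scaling by length. The steps between low values imply 362483 to 541342 miRNA reads per library, so that 3 reads, taken here as the floor, equal 5.54 to 8.28 RPM. Intervals below are exact 95% intervals for counting error only. For sums they take each read as counted once, and are too narrow where reads enter several signals. Between 630 and 751 of the 1099 miRNAs were above 0 in a library, and the embryonic stem cell miR-290 cluster made up 162740 to 460852 RPM, less on each later day in both treatments.

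Many members cannot be told apart in the table. The 76 entries held 68 distinct signals, because 7 signals were shared by 15 entries with identical values in all 8 libraries: miR-466b-3p, miR-466c-3p and miR-466e-3p were 1 signal, as were miR-669a-3p with miR-669o-3p, miR-669a-5p with miR-669p-5p, miR-467a-3p with miR-467d-3p, miR-297b-3p with miR-297c-3p, miR-466b-5p with miR-466o-5p and miR-669d-2-3p with miR-669l-3p. Among signals with means of 10 RPM or more, a further 7 pairs differed by at most 3 reads or 10% in every library, such as miR-467a-5p with miR-467b-5p and miR-669a-3p with miR-669a-3-3p. The treatment of reads that match several entries is not given in the sources consulted. Signals are therefore counted below, each under the first of its names, and near-equal pairs are not independent. Of the 68 signals, 67 had at least 1 RPM in at least 2 libraries and were tested, 53 were above 0 in every library, and miR-669i was listed at 0 throughout. The 52 signals with a mean of at least 10 RPM are described by single days: 4 of miR-297, 25 of miR-466, 11 of miR-467 and 12 of miR-669, or 29 from 5p arms, 17 from 3p arms and 6 with no arm in the name. The other 16 had means of 8.25 RPM or less, close to the floor.

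Summed over signals, the families were a small share of each library. The no-Dox libraries of days 0, 1, 2 and 4 held 4994, 7928, 8711 and 6351 RPM of them, and the Dox libraries held 6217, 7422, 9015 and 10942 RPM. The Dox day 4 library stood above all the others, at 1.09% of its miRNA reads. miR-467 was the most abundant family in every library, with 40.3% to 54.9% of the sum, followed by miR-466 with 22.3% to 34.5%, miR-669 with 19.6% to 25.6% and miR-297 with 1.13% to 3.04%. Since a read may be counted under several entries, these sums are upper values, and the near-equal miR-467a-5p and miR-467b-5p both enter the miR-467 sum.

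The 5p strands were more abundant than the 3p strands in sum in all 8 libraries, at 3275 to 7296 RPM against 1156 to 3482 RPM. The leading signal was miR-467a-5p, at 560, 1107, 1158 and 1062 RPM without Dox and 787, 759, 1904 and 1402 RPM with it on the 4 days, with miR-467b-5p near-equal to it. Its level was higher with Dox on days 0, 2 and 4 and lower on day 1. Next came miR-669c-5p with a mean of 504.1 RPM, miR-467h (315.9), miR-466b-3p (264.9) and its near-equal miR-466p-3p, miR-669a-5p (254.6), miR-669f-5p (252.6), miR-466a-3p (248.9) and miR-467c-5p (239.2). Among names with many hairpin copies, miR-466b-3p exceeded miR-466b-5p in all 8 libraries, by 1.01 to 3.06 times. That 3p signal is shared with miR-466c-3p and miR-466e-3p, whose 5p strands are separate signals. The ratio therefore does not compare arms of the same hairpins and shows no favoured arm. miR-669a and miR-467a, which also share signals with other names, had more 5p than 3p in all 8.

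**Figure D2:**
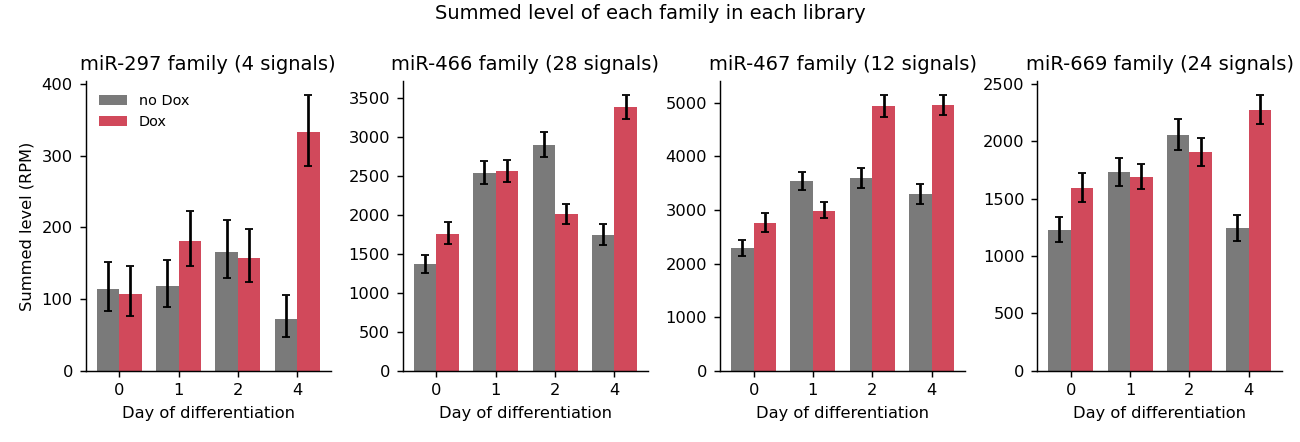
Bars give the summed RPM of each family's signals by day of EB differentiation in 1 library each without Dox (grey) and with Dox (red); error bars are exact 95% counting intervals that take each read as counted once. All 4 families are higher with Dox at day 4, miR-297 by 4.63 times, while at day 2 miR-466 is lower with Dox and miR-467 higher, the latter only with the near-equal miR-467a-5p and miR-467b-5p included.

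Over all 4 days, the Dox effect was called (adjusted p below 0.05 over all miRNAs tested) in 2 member signals, both 3p strands of miR-669a-type hairpins of Sfmbt2. The level of miR-669a-3p (identical to miR-669o-3p) was 27, 56, 19 and 22 RPM without Dox and 71, 85, 47 and 172 RPM with it on days 0, 1, 2 and 4, and near-equal miR-669a-3-3p was 24, 56, 17 and 19 against 68, 83, 43 and 164 RPM. Both were higher with Dox on each of the 4 days, although the groups overlapped, since the Dox day 2 library lay below the no-Dox day 1 library. The fitted log2 change of miR-669a-3p was 1.53 (SE 0.36), and limma's moderated test gave adjusted p = 0.00288 over the 839 miRNAs tested. Of all miRNAs tested, 1.31% were called higher and 0.596% lower with Dox, against 2 of 67 member signals (3 of 75 entries) higher and 0 of 67 lower. An unadjusted p below 0.05 was found in 6 signals, among them the near-equal miR-669a-3p with miR-669a-3-3p and miR-466f with miR-466f-5p. Counts by unadjusted p, here and below, cover members only. The share of all miRNAs at that threshold is not given, so no excess is read from them. The limma-voom alternative on the recovered reads also called 2.

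The calls were lost when libraries of day 2 or day 4 were left out. For miR-669a-3p the fitted change was 1.62 without the day 2 pair (limma adjusted p = 0.312, with fewer libraries in the fit) and 1.07 without the day 4 pair (limma adjusted p = 0.114). Leaving out any single library of those days also ended the call (adjusted p from 0.0955 to 0.180). Over all alternatives its adjusted p ran from 0.00197 to 0.870.

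The 5p signal under the name miR-669a did not pass the test. miR-669a-5p (identical to miR-669p-5p) was at 167, 236, 460 and 124 RPM without Dox and at 232, 251, 349 and 218 RPM with it, for a log2 change of 0.24 (SE 0.26, limma adjusted p = 0.856). The ratio of 3p to 5p reads of miR-669a was 0.162, 0.237, 0.0413 and 0.177 without Dox and 0.306, 0.339, 0.135 and 0.789 with it, higher with Dox in 4 of 4 pairs. The 3p signal is shared with miR-669o-3p, whose 5p strand is a separate signal, and the 5p signal with miR-669p-5p. This ratio therefore does not compare arms of the same hairpins. The summed 3p and 5p strands of all members did not share that pattern: their ratio was 0.380, 0.373, 0.229 and 0.289 without Dox and 0.371, 0.50, 0.158 and 0.531 with it, higher with Dox at days 1 and 4 only.

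Among the other members no fitted Dox change was called. The median over the 67 tested signals was 0.24, beside 0.03 over all miRNAs tested, and 53 of the 67 were above 0. Among the 52 signals averaging 10 RPM or more, the next largest values belonged to miR-466f-5p (1.06, SE 0.42), its near-equal miR-466f (1.01, SE 0.41) and miR-297b-5p (0.95, SE 0.44), with limma adjusted p of 0.213, 0.261 and 0.400. miR-297b-5p was at 17, 20, 38 and 8 RPM without Dox and 25, 29, 36 and 63 RPM with it. The lowest of the 52 belonged to 5p strands, miR-669e-5p (-0.61, SE 0.48), miR-466c-5p (-0.37, SE 0.36), miR-466e-5p (-0.12, SE 0.30), miR-466a-5p (-0.06, SE 0.31) and miR-669h-5p (-0.04, SE 0.57), none of which passed. Of the 52 signals averaging 10 RPM or more, 0 had the 4 Dox libraries all above or all below the 4 no-Dox libraries (1.4% and 1.0% of all miRNAs at that level did). Dox was higher on each of the 4 days in 3 of 52 signals, miR-669a-3p, miR-669a-3-3p and miR-467a-3p (9.42% of all miRNAs), and lower on each in none (10.2%).

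Day by day, members stood on either side of their no-Dox level until day 4, when nearly all were higher with Dox. The median log2 Dox ratio of the 67 tested signals was 0.22, 0.04, -0.20 and 0.94 at days 0, 1, 2 and 4, while that of all miRNAs tested was 0.00, 0.01, 0.00 and 0.00. These ratios compare 1 library with 1 library, so they carry no test.

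At day 0, 6 of 52 signals were at least 2-fold higher with Dox (9.82% of all miRNAs averaging at least 10 RPM) and 2, miR-466m-3p and miR-467e-3p, at least 2-fold lower (11.2%). At day 1, miR-297a-5p and miR-466d-3p were at least 2-fold higher (9.82%) and miR-466l-5p and miR-669h-5p lower (5.01%). At day 2, miR-466m-3p, miR-466n-3p, miR-669a-3p and miR-669a-3-3p were higher (7.21%) and miR-466d-3p and miR-669e-5p lower (10%). The members' shares in these counts ran from 3.85% to 11.5%.

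At day 2, the 12 miR-466 5p signals were all lower with Dox, by a median log2 ratio of -0.44. Of the 499 miRNAs averaging at least 10 RPM, 275 were lower too (median -0.09). The 12 include the near-equal miR-466d-5p and miR-466n-5p, and most of their single counting intervals include 1. The summed miR-466 level was 2007 RPM with Dox against 2895 RPM without (ratio 0.693, counting interval 0.637 to 0.756 if each read was counted once). miR-466e-5p, the most abundant of these strands, was at 237 RPM without Dox and 168 RPM with it. The summed miR-467 level was 1.38 times higher with Dox on the same day (1.29 to 1.47, again if each read was counted once). All of it came through miR-467a-5p, at 1904 against 1158 RPM, and its near-equal miR-467b-5p, which are counted as separate signals. The other 10 signals of miR-467 summed to 1141 RPM with Dox against 1287 RPM without (ratio 0.887), and over the 11 miR-467 signals averaging at least 10 RPM 6 were higher and 5 lower.

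**Figure D3:**
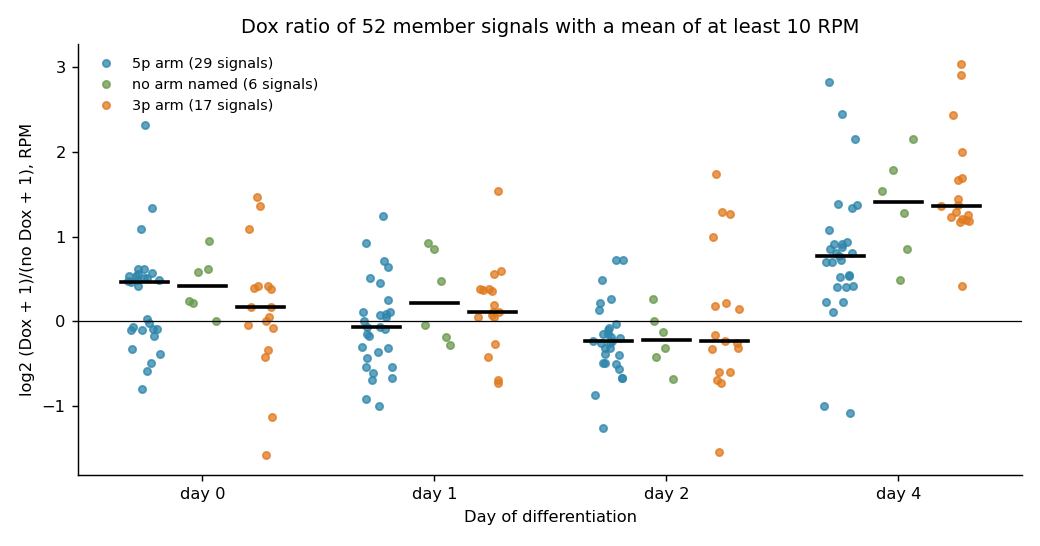
Each point is 1 of 52 member signals, with its log2 ratio of (Dox + 1) to (no Dox + 1) in RPM on each day, grouped by arm; black bars are medians. Points scatter around 0 on days 0 to 2, and at day 4 50 of the 52 lie above it, with the 3p median at 1.35 and the 5p median at 0.77.

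At day 4, 27 of 52 signals (32 of 59 entries) were at least 2-fold higher with Dox, where 10.8% of all miRNAs at that level were, and 50 of 52 were higher at all. The summed level of the families was 1.72 times higher (1.64 to 1.81 if each read was counted once). The exceptions, both 5p strands at least 2-fold lower (13.4% of all miRNAs), were miR-466i-5p, at 67 against 135 RPM (ratio 0.492, 0.311 to 0.772), and miR-669e-5p, at 15 against 33 RPM (ratio 0.446, 0.158 to 1.19). The second interval includes 1, so that difference was not detectable at this depth.

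The day 4 ratio was larger for 3p than for 5p strands. All 17 signals from 3p arms were higher with Dox, 16 of them at least 2-fold, with a median log2 ratio of 1.35. Of 29 signals from 5p arms 27 were higher, 7 at least 2-fold, with a median of 0.77. Of the 30 names with both arms listed, the ratio of 3p to 5p was higher with Dox in 23 and lower in 7, with a median of 0.784 with Dox and 0.254 without it. Where both arms averaged at least 10 RPM it was higher in 16 of 21 names, with medians of 0.992 and 0.864, and lower in those of miR-297b, miR-297c, miR-466f, miR-466m and miR-466n. On days 0, 1 and 2 it was higher with Dox in 7, 14 and 7 of the 21. Hairpins that share reads are not independent, and the arms of a name can share signals with different names. The difference between arms therefore has no test.

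Several 3p strands show the size of the day 4 difference. The level of miR-669a-3p was 7.78 times higher with Dox (3.79 to 18.6). miR-669f-3p was at 37 against 6 RPM (ratio 6.70, 1.63 to 59.1), where the no-Dox value is 2 reads, below the floor. miR-297b-3p (identical to miR-297c-3p) was at 34, 42, 38 and 39 RPM without Dox and 25, 48, 32 and 159 RPM with it, so that its Dox day 4 library alone stood apart (ratio 4.11, 2.32 to 7.84). The level of miR-467a-3p was 124, 127, 83 and 113 RPM without Dox and 128, 164, 94 and 277 RPM under Dox, again highest in the Dox day 4 library (ratio 2.45, 1.72 to 3.55).

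The most abundant 3p signal, miR-466b-3p, was at 170, 316, 259 and 196 RPM without Dox and 227, 328, 170 and 453 RPM with it. It was lower with Dox at day 2 (ratio 0.658, 0.487 to 0.886) and higher at day 4 (2.31, 1.77 to 3.05), and its groups overlapped. miR-466a-3p followed it, at 249 and 149 RPM at day 2 and 190 and 432 RPM at day 4 without and with Dox.

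For the abundant 5p strands the day 4 ratio was smaller. It was 1.32 (1.17 to 1.5) for miR-467a-5p, 1.44 (1.20 to 1.72) for miR-669c-5p and 1.07 (0.810 to 1.43) for miR-467c-5p, the last not distinguishable from 1 at this depth. For miR-669a-5p it was 1.76 (1.24 to 2.53) and for miR-669f-5p 1.66 (1.21 to 2.3). Of the miR-297 5p strands, miR-297c-5p and miR-297b-5p were exceptions, on few reads. miR-297c-5p was at 34, 38, 52 and 14 RPM without Dox and 30, 60, 57 and 81 RPM with it, a day 4 ratio of 5.89 (2.34 to 19.0), made of a no-Dox value below and a Dox value above those of the other days. In miR-297b-5p the no-Dox day 4 library was likewise the lowest of the 8 and the Dox day 4 library the highest.

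**Figure D4:**
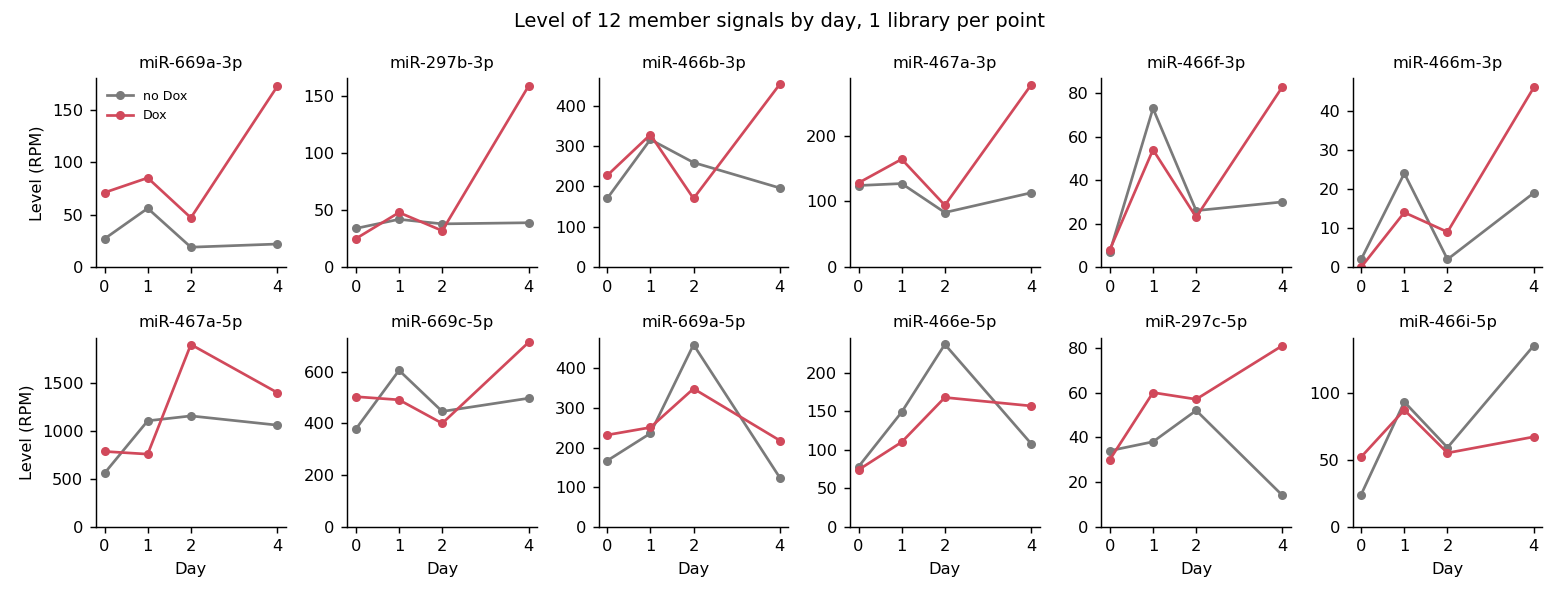
Levels in RPM of 12 member signals on days 0, 1, 2 and 4 without Dox (grey) and with Dox (red), each point 1 library and each vertical axis starting at 0. miR-669a-3p is higher with Dox on all 4 days, miR-297b-3p, miR-466b-3p and miR-467a-3p peak in the Dox day 4 library, and miR-466i-5p is lower with Dox at day 4.

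Other miRNAs differed between the day 4 libraries as well. The miR-290 cluster summed to 228907 RPM with Dox against 162740 without (ratio 1.41). The miR-302 cluster, which marks primed pluripotent cells, summed to 2369 against 35789 RPM (ratio 0.0662), with 9 of 9 members at least 2-fold lower. Of the other cell type lists, 7 of 8 fibroblast or feeder miRNAs were in the table and summed to 13606 to 39750 RPM without Dox and 19417 to 57665 RPM with it, 1.45 times higher with Dox at day 4. All 4 endoderm miRNAs were listed, at 280 to 801 RPM without Dox and 589 to 985 RPM with it (day 4 ratio 1.28), and miR-122-5p was at 0 in at least 1 library. Both neural miRNAs were listed, at 3631 to 7389 and 3045 to 5231 RPM (day 4 ratio 0.711). For muscle, 2 of 3 were listed, at 0 to 130 and 0 to 53 RPM (0.408), with miR-1a-3p and miR-133a-3p at 0 in at least 1 library, and for blood 3 of 4, at 20 to 59 and 10 to 49 RPM (1.15), with miR-451a and miR-144-3p at 0 in at least 1. Their part in the members' day 4 difference was not tested. In bulk cultures, fewer cells of a type and less RNA per cell cannot be told apart. When each library was scaled to its total outside the miR-290 cluster, the members' summed day 4 ratio was 1.87.

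A Dox effect that moved in a line with day was not called in any member. limma called 0 of 67 signals and limma-voom called 0, whereas limma called a rising Dox ratio in 0.238% of all miRNAs and a falling one in 0.715%. In 7 signals the unadjusted p was below 0.05, with no share of all miRNAs given at that threshold. The fitted slope was 0.20 log2 units per day in the median member signal and -0.04 over all miRNAs. The 7 were miR-297b-3p (0.58 per day, SE 0.24, limma adjusted p = 0.322), miR-297c-5p (0.61, SE 0.24), miR-297b-5p (0.58, SE 0.28), miR-669a-3p, miR-669a-3-3p and miR-466l-3p upward, and miR-466i-5p (-0.47, SE 0.22) downward.

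**Figure D5:**
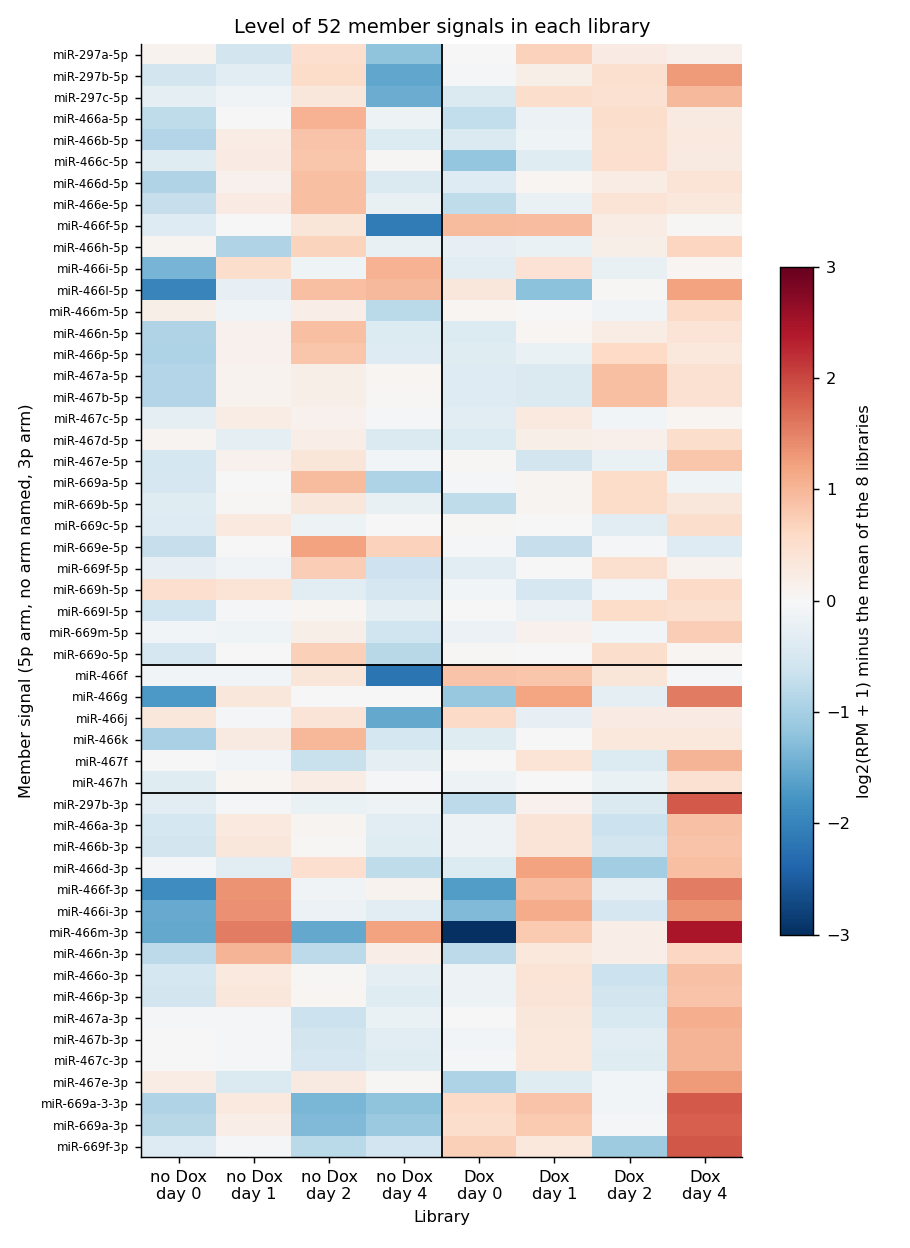
Each row is 1 of 52 member signals and each column 1 library; colour gives log2(RPM + 1) minus the signal's mean over the 8 libraries, with colours ending 3 units either side of that mean, with 5p strands at the top, names without an arm in the middle and 3p strands at the bottom. Most 3p rows are highest in the Dox day 4 column and most miR-466 5p rows in the no-Dox day 2 column, and miR-466f-3p and miR-466i-3p are lowest in the day 0 columns.

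The days of differentiation were compared next, and at day 1 and day 2 the share of members called was near that of all miRNAs. At day 1 against day 0, averaged over both treatments, 4 of 67 signals rose and 0 fell, while 7.03% of all miRNAs tested rose and 1.07% fell. miR-466f-3p went from 7 to 73 RPM without Dox and from 8 to 54 RPM with it (log2 change 2.91, SE 0.60, limma adjusted p = 1.1e-04), and miR-466i-3p from 7 to 58 and from 8 to 48 RPM (2.66, SE 0.65, limma adjusted p = 0.00152). miR-466g went from 5 to 24 and from 8 to 44 RPM. miR-466m-3p went from 2 to 24 and from 0 to 14 RPM, where the day 0 values are at most 1 read and its fold depends on the pseudocount. The day 0 values of miR-466f-3p, miR-466i-3p and miR-466g are 2 or 3 reads, at or below the floor, so their folds are uncertain too. In all 4 both day 1 libraries lay above both day 0 libraries, and levels at day 2 were lower again, at 26 and 23 RPM for miR-466f-3p without and with Dox. The median of all miRNAs was 0.37 higher at day 1 than at day 0 on the log2 scale, and with median-of-ratios scaling, which removes that shift, all of these but miR-466g were called. Without the no-Dox day 1 library 0 signals were called, and without the Dox day 1 library 2, miR-466f-3p and miR-466i-3p.

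At day 2, of 67 signals 12 were called higher than at day 0 and 0 lower, where 15.3% of all miRNAs rose and 2.03% fell, and 10 of the 12 were 5p strands: those of miR-466a, miR-466b, miR-466c, miR-466d, miR-466e, miR-466n, miR-466p, miR-467a, miR-467b and miR-669a. The others were miR-466k and miR-466f-3p. Of the 10, miR-466d with miR-466n and miR-467a with miR-467b are near-equal pairs, and 5p was not tested against 3p. miR-466a-5p went from 56 to 197 RPM without Dox and from 57 to 138 RPM with it (1.53, SE 0.44, limma adjusted p = 0.00645), miR-466e-5p from 78 to 237 and from 74 to 168 RPM, and miR-466c-5p from 39 to 90 and from 22 to 72 RPM. In all 3 both day 2 libraries were above both day 0 libraries.

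These day 2 calls depended on the scaling and on single libraries. The median of all miRNAs was itself 0.48 higher at day 2 than at day 0 on the log2 scale, and 0.32 higher in the members. With median-of-ratios scaling (median 0.03 over all miRNAs and -0.14 in members), 0 signals were called higher and 1, miR-669m-3p, lower. Scaled to the total outside the miR-290 cluster, 6 were called higher. Leaving out the no-Dox day 0, no-Dox day 2 or Dox day 2 library left 0 calls, and leaving out the Dox day 0 library left 5.

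At day 4 against day 0, 8 signals rose and 1 fell, where 21.9% of all miRNAs rose and 3.81% fell. Rises were called in miR-466m-3p, miR-466f-3p (log2 change 2.59, SE 0.60), miR-466g (2.21, SE 0.69), miR-466i-3p (1.93, SE 0.65), miR-297b-3p (1.41, SE 0.53), miR-466i-5p (1.40, SE 0.48), miR-467a-5p (0.88, SE 0.29) and its near-equal miR-467b-5p, with limma adjusted p between 8.0e-05 and 0.0318. Of these, miR-466m-3p, miR-466f-3p, miR-466g and miR-466i-3p had at most 3 reads in each day 0 library. The fall was in miR-466f (-1.50, SE 0.58, limma adjusted p = 0.0400), at 29, 29, 40 and 6 RPM without Dox and 57, 56, 40 and 30 RPM with it. miR-466f-5p, near-equal to it, and miR-466j had fitted changes of -1.31 and -1.10 that did not pass, and miR-297a-5p (-0.59, SE 0.61), miR-669a-5p (-0.26, SE 0.37) and miR-466l-5p (1.89, SE 0.83) did not pass either. The signals named miR-466f thus stood apart, on few reads. At day 4 miR-466f-3p was at 30 and 83 RPM without and with Dox, above its day 0 level of 3 reads in each library. miR-466f was at 6 and 30 RPM, below its own day 0 level, where 6 RPM is 2 reads. Both names match hairpins inside and outside Sfmbt2, so the strands need not come from the same hairpins.

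The median shift of all miRNAs at day 4 was 0.56 on the log2 scale, beside 0.49 in the members. With median-of-ratios scaling 2 signals were called higher, miR-466f-3p and miR-466m-3p, and 3 lower, miR-466f, miR-466f-5p and miR-466j. Scaled to the total outside the miR-290 cluster the same pair was called higher and miR-466f and miR-466f-5p lower. Calls came to 3, 14 and 5 when the no-Dox day 0, no-Dox day 4 or Dox day 4 library was left out.

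Within each treatment, levels of the 52 signals can be set against day 0. Without Dox their median log2 change was 0.59 at day 1, 0.61 at day 2 and 0.20 at day 4, and with Dox 0.37, 0.29 and 0.92. Over all miRNAs averaging at least 10 RPM it was 0.32, 0.57 and 0.59 without Dox and 0.36, 0.42 and 0.63 with it. For 3p strands it was 0.83, 0.04 and 0.19 without Dox and 0.54, -0.42 and 1.26 with it, and 17 of 17 were above their day 0 level in the Dox day 4 library against 9 of 17 in the no-Dox one. For 5p strands it was 0.58, 1.04 and 0.30 without Dox and 0.21, 0.54 and 0.81 with it. Each of these values sets 1 library against 1 library, and the difference between treatments in course has no test here beyond that of the changing Dox effect.

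Of the 9 members whose hairpins lie outside Sfmbt2, miR-466q, miR-467g and miR-669n had means at or below 7.63 RPM, and 6 had a mean of at least 10 RPM. At day 4, 5 of these 6 were higher with Dox (median log2 ratio 1.07, beside 0.93 for the 40 signals of Sfmbt2 hairpins). No difference between the groups was tested, since reads may be shared across them.

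miR-467h, the most abundant of the outside members, comes from a hairpin over no annotated gene (chr9:115381819-115381939), and was at 242, 322, 363 and 306 RPM without Dox and 282, 313, 270 and 429 RPM with it. Its groups overlapped, and its log2 change with Dox was 0.06 (SE 0.25). miR-467f, whose hairpin lies opposite to Fxr2 (chr11:69635400-69635519, minus strand, no exon), was at 112, 107, 71 and 94 RPM without Dox and 112, 149, 85 and 229 RPM with it. Its values lay close to those of miR-467b-3p from Sfmbt2, at 119, 116, 81 and 94 and at 112, 149, 94 and 242 RPM. The hairpin of miR-466k lies opposite to Gm37240 (chr3:85467377-85467498). Its level was 46, 111, 185 and 63 RPM without Dox and 71, 91, 115 and 115 RPM with it, highest at day 2 without Dox like the miR-466 5p strands.

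Mir466i lies opposite to Cdk13, in no exon (chr13:17747473-17747593), and the strands named after it had different courses. miR-466i-3p, the A/C-rich strand printed above, was at 7, 58, 19 and 17 RPM without Dox and 8, 48, 15 and 57 RPM with it. miR-466i-5p was at 24, 93, 59 and 135 RPM and at 52, 87, 55 and 67 RPM. At day 4 Dox was thus on the side of more 3p and less 5p under these names. Counting intervals of both ratios (1.42 to 10.1 and 0.311 to 0.772) lay apart from each other. Except in the no-Dox day 1 library, miR-466i-3p lay close to miR-466g from Sfmbt2. The latter was at 5, 24, 19 and 19 RPM without Dox and 8, 44, 15 and 57 RPM with it. Reads may be shared, so the 3p values cannot be assigned to this hairpin alone. miR-466j, from a hairpin over no gene (chr10:60960723-60960844), was at 32, 24, 33 and 8 RPM without Dox and 38, 21, 30 and 30 RPM with it, lowest in the no-Dox day 4 library.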

How the data were processed

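Small RNA libraries of KH2-DGCR8 cells at 4 days of EB differentiation, with and without Dox, were sequenced, 8 libraries in all. The authors deposited 1 table of scores, RPM rounded to whole numbers, for 1099 miRNAs, which sum to 999965 to 1000047 per library; a SUM row without values was left out. Bowtie and mm10 are named per the submitters' processing notes, and the counting tool, miRNA annotation, filters and treatment of reads matching several entries are not given in the sources consulted. Groups came from the sample labels.

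Each value was tested for a whole number of reads at 1 common total per library (within 0.5 RPM), which gave the implied reads. miRNAs with at least 1 RPM in at least 2 libraries (839) were fitted with limma 3.58.1 in R 4.3.3 (trend and robust) on log2(value + 1), so folds of low miRNAs are understated, with treatment and day as terms, 3 residual degrees of freedom (2 with the changing Dox effect), Benjamini-Hochberg adjustment over all 839 and a threshold of 0.05. Because the values are rounded RPM, a count model was not used for the main test. The robust fit gave weight to the entry's own residual spread in 1 of the 75 member entries tested. For the others, SE and p-value rest on a spread pooled over miRNAs of similar level. The script was tested on simulated data. Ratios of single libraries carry exact 95% binomial intervals from implied reads, which for sums take each read as counted once. Hairpins came from GENCODE vM21 and RefSeq by symbol.

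The families, though picked out by name, and the lists were chosen for description with earlier results of these data known. Named were members past the threshold for Dox, the most abundant signal of each family and arm, the 5 largest fitted rises and falls with Dox and from day 0 to day 4 (mean of at least 10 RPM), the 10 most abundant signals and members outside Sfmbt2; others were named after their values were seen, where a count was small or a signal showed a pattern. Alternatives changed the pseudocount, filter, scaling, robust option, merging of identical rows, day term and model, and left out each day pair or library; single libraries were left out, near-equal pairs counted once and sums taken without miR-467a-5p and miR-467b-5p as alternatives chosen after seeing the data.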

Additional observations from a re-analysis of the deposited data

How the results depend on the processing

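Neither signal called for Dox changed sign under any alternative run. Of the alternatives to the counts, sums and medians, 145 stayed within the limits set for no change, 43 moved and 3 reversed; of those to single miRNAs, 26 kept their side of the threshold and 18, all for miR-669a-3p or miR-669a-3-3p, lost it. The Dox effect changing with day stayed at 0 called signals in every setting. The Dox calls went from 2 to 0 with no filter on low values, without the robust option and with no day term (unadjusted p below 0.05 in 2, 4 and 2 signals), and were 0 to 2 when a pair or library was left out. Calls at day 1 went from 4 to 0 with no filter and 0 without the robust option (0 to 5 when a library was left out). At day 2 they went from 12 to 0 with no filter, 1 with median-of-ratios scaling, 6 with the total outside the miR-290 cluster and 1 without the robust option (0 to 16 leaving out a library). At day 4 they went from 9 to 0 with no filter, 5 with median-of-ratios, 4 outside the miR-290 cluster and 2 without the robust option (3 to 14 leaving out a library). Scaled outside the miR-290 cluster, the Dox ratio of the summed level was 1.13 at day 0 and 1.87 at day 4 for all members, and 1.09 and 1.63 for miR-467. Without miR-467a-5p and miR-467b-5p it turned to 1.03 at day 1 for all members (from 0.936) and to 1.11 at day 1 (from 0.845) and 0.887 at day 2 (from 1.38) for miR-467, and moved to 0.814 at day 2 and 1.92 at day 4 for all members and 1.01 at day 0 and 1.83 at day 4 for miR-467. With near-equal pairs counted once it was 0.964 for all members and 1.25 for miR-467 at day 2. The median Dox log2 ratio at day 0 was 0.078 with that scaling and 0.023 over hairpins in Sfmbt2 only. At day 4 it was 0.82 with a pseudocount of 5, 1.13 with a mean of at least 10 RPM and 1.06 outside the miR-290 cluster. The causes were not tested. The labels carry no replicate numbers, and day, with 1 library of each treatment, is the block that pairs Dox with no Dox in the fits above.

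Each condition had 1 library, so single-day ratios have counting error only, and the members with means under 10 RPM rest on a few reads.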
